A study of Mus musculus with 6 samples.

Results

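Through gp130, the IL-10 receptor and the interferon receptors, cytokines made by other cells reach STAT transcription factors inside a regulatory T (Treg) cell, and 10 genes that encode chains of these receptors are described here. They are *Il6ra*, *Il6st*, *Il27ra*, *Il10ra*, *Il10rb*, *Ifngr1*, *Ifngr2*, *Ifnar1*, *Ifnar2* and *Il12rb1*, chosen by symbol from the 24420 genes of the deposited table. All 10 were present, and all 10 passed the filter on low counts that left 10949 genes for testing. The sequenced RNA came from healthy adult female C57BL/6 mice, whose Treg cells were enriched with CD4 beads and then sorted as YFP+. The paper's description of the RNA sequencing names no tissue for these cells. OGT is the enzyme that attaches O-GlcNAc sugars to intracellular proteins, and the question was what its loss does to the Treg transcriptome. All mice were heterozygous for the *Foxp3*-driven YFP-Cre allele (*Foxp3*YFP-Cre/wt), which lies on the X chromosome, and carried at least 1 floxed *Ogt* allele. The OGT-sufficient group held 3 samples with *Ogt*wt/fl and the OGT-deficient group held 3 samples with *Ogt*fl/fl. Because 1 X chromosome is silenced in each cell, these females also had YFP-negative Treg cells without Cre, and on which X the floxed allele of the control mice lay is not given in the sources used here.

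The receptors work in pairs. IL-6 binds IL-6Rα (*Il6ra*) and signals through gp130 (*Il6st*), which IL-27 also uses together with *Il27ra* and from which both lead to STAT3. IL-10 binds IL-10Rα (*Il10ra*) and needs the accessory chain *Il10rb*, and in Treg cells this route to STAT3 is known for the restraint of TH17 inflammation. IFN-γ uses *Ifngr1* and *Ifngr2*, type I interferons use *Ifnar1* and *Ifnar2* and signal through STAT2 and IRF9, and *Il12rb1* is shared by the receptors of IL-12 and IL-23.

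The genes lie on 6 chromosomes of the mouse genome (mm10, gene models of GENCODE M21). *Ifnar2* (chr16:91372783-91405589), *Il10rb* (chr16:91406164-91425834), *Ifnar1* (chr16:91485238-91507441) and *Ifngr2* (chr16:91547072-91565623) follow each other on the plus strand within 192.8 kb of chromosome 16. *Il6st* lies at chr13:112464070-112510086 and *Ifngr1* at chr10:19591949-19610229, both on the plus strand. *Il6ra* (chr3:89864059-89913196) and *Il10ra* (chr9:45253837-45269149) lie on the minus strand. *Il27ra* (chr8:84030294-84042589, minus strand) and *Il12rb1* (chr8:70808449-70821424, plus strand) share chromosome 8.

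RefSeq (GRCm38.p6) gave a promoter for 6 of the 10 genes, that is for *Il6st*, *Il6ra*, *Ifngr1*, *Ifngr2*, *Ifnar1* and *Ifnar2*. The 250 bases upstream of the start are shown for *Il6st* and *Il6ra*, whose levels separated the genotypes, and for *Ifnar2*. The *Ifnar2* promoter holds a match to the letters of the GAS motif, the form of sequence to which STAT dimers bind. Capitals mark the GAS match.
Il6st (chr13:112463820-112464069, plus strand): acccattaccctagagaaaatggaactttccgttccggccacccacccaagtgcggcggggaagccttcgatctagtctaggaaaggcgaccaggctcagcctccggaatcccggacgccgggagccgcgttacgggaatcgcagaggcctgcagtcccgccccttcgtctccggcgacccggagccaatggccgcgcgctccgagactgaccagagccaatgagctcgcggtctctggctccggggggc
Il6ra (chr3:89913197-89913446, minus strand): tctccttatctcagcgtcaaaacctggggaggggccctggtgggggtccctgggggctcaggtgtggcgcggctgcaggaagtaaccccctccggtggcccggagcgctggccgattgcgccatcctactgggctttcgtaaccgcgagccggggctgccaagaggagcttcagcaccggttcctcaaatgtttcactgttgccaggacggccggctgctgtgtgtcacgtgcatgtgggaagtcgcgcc
Ifnar2 (chr16:91372533-91372782, plus strand): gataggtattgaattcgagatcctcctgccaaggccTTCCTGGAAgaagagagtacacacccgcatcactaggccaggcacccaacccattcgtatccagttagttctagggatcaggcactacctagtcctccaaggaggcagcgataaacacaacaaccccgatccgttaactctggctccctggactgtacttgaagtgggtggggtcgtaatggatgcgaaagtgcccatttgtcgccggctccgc
The GAS motif was searched as TTCNNNGAA and the interferon-stimulated response element (ISRE) as GAAANNGAAA, on both strands of windows reaching from 250 bases before to 50 bases after the start. A GAS match was found in 2 of the 6 receptor promoters, in *Ifnar2* from -214 to -206 and in *Ifnar1* from -5 to 4 relative to the start, against 8.30% of 32851 mouse promoters. No ISRE match was found in the 6 windows, so the 2 motifs did not overlap in any of them, and 3.44% of all promoters held one. The GC content of the upstream bases ran from 54.0% in *Ifnar2* to 74.0% in *Ifngr2*, with a median of 52.4% and quartiles of 45.2% and 61.2% over all promoters. A match of letters is a description and no evidence of binding.

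The libraries held between 3375454 and 4103552 counts, of which the ribosomal RNA gene *Rn45s* took 24.2% to 37.1%. OGT-sufficient replicate 3 stood apart, with counts in 18346 genes against 14412 to 15197 in the others, and with the highest summed neutrophil, B-cell and erythroid markers. The targeted gene *Ogt* was at 150, 170 and 252 CPM (counts relative to the TMM-scaled size of the library) with *Ogt*wt/fl against 84.4, 67.3 and 96.4 CPM with *Ogt*fl/fl, a log2 difference of -1.21 ± 0.21 (SE) with an FDR of 0.191 by edgeR's quasi-likelihood test. The groups did not overlap and the direction matched the labels. All 9 Treg markers were detected in all samples, and their summed level was 2210 to 3344 CPM. Markers of another cell type were detected beside them, with 14 of 14 macrophage markers that summed to between 1725 and 6747 CPM.

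No receptor chain passed an FDR of 0.1 in edgeR's quasi-likelihood test, the threshold at which 3 of the 10949 genes (0.0274%) were called. At an unadjusted p under 0.05, 2 of the 10 chains were reached, *Il6st* and *Il6ra*, against 7.1% of all genes tested. Both were higher in OGT-deficient cells, a direction and level of p that 3.09% of all genes met. *Il6st* alone was under 0.01, as were 1.84% of genes. The same 2 chains had groups that did not overlap, and so did 13.2% of all genes. The log2 fold change was above 0 in 8 chains and below 0 in 2, beside 5175 above and 5774 below 0 over all genes tested. The median was 0.13 for the chains and -0.02 over all genes. OGT-sufficient replicate 3 gave the lowest level of 7 of the 10 chains, while it was the lowest sample for 23.8% of all genes tested. The same sample had the lowest summed Treg markers (2210 CPM, against 2963 to 3344 CPM in the others), and the part of this in the receptor values was not tested. Since these are bulk samples, fewer cells that use a gene and less RNA per cell cannot be told apart.

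**Figure D1:**
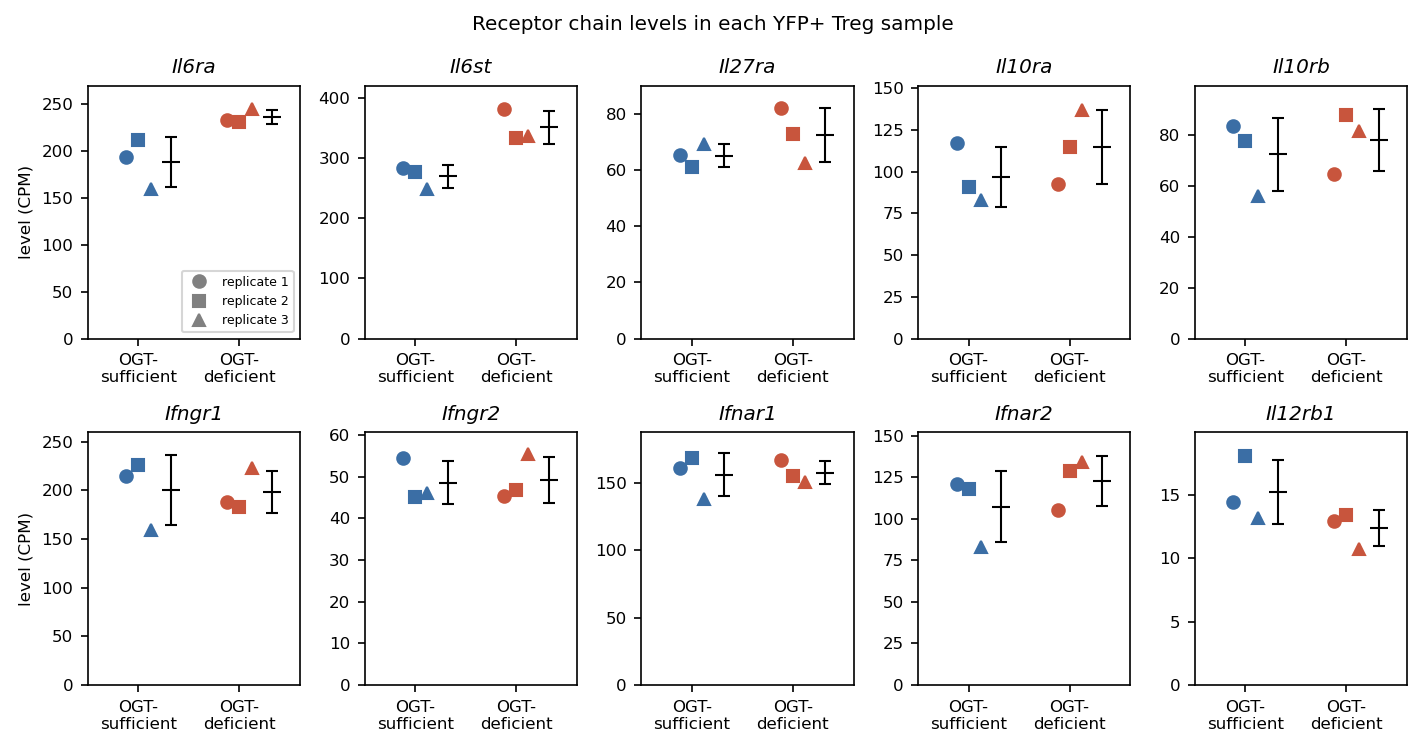
Level of each receptor chain in CPM (y axis, from 0) in the OGT-sufficient (blue) and OGT-deficient (red) samples, with 1 point per sample, a shape per replicate number and the mean ± SD of 3 samples in black. The groups do not overlap for *Il6ra* and *Il6st* and overlap for the other 8 chains.

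The gp130 chain *Il6st* was the most abundant of the 10 transcripts per library, above 97.2% of the genes tested. Replicates 1, 2 and 3 of the OGT-sufficient group had 1063, 1030 and 943 counts, and those of the OGT-deficient group had 1483, 1320 and 1288. After scaling these were 284, 277.5 and 248 CPM against 383, 334 and 337.5 CPM. Each OGT-deficient sample lay above each OGT-sufficient sample, with replicate 1 the highest of the 6. Group means were 270 ± 19.1 and 351 ± 27.1 CPM (SD, n = 3). This is a 1.30-fold higher level with a 95% interval of 1.09 to 1.56. The log2 fold change of 0.38 ± 0.11 (SE) had an unadjusted p of 0.00891 and an FDR of 0.519 in edgeR, so it did not pass once all genes were considered. It lay between 0.32 and 0.46 over 15 alternative settings. Scaled by library size only, without TMM factors, *Il6st* had an unadjusted p of 0.0503.

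*Il6ra*, which binds IL-6 itself, ran beside gp130. It had 726, 788 and 606 counts in OGT-sufficient against 906, 915 and 936 counts in OGT-deficient replicates 1 to 3. In CPM the values were 194, 212 and 159.5 against 234, 231.5 and 245. The OGT-deficient samples lay close together and all above the OGT-sufficient ones, among which replicate 3 was the lowest. The means were 189 ± 26.8 and 237 ± 7.41 CPM (SD, n = 3), a 1.26-fold higher level with a 95% interval of 1.03 to 1.53. The log2 fold change was 0.33 ± 0.13 (SE), with an unadjusted p of 0.0299 and an FDR of 0.666 in edgeR. Without OGT-sufficient replicate 3 it was 0.23 with an unadjusted edgeR p of 0.0517. Without OGT-deficient replicate 1 or 3 the p was 0.0576 or 0.0643, and with library size only 0.0687. The *Il6ra* call at an unadjusted p under 0.05 thus rested on single libraries and on the scaling.

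*Il27ra*, the chain that pairs with gp130 to bind IL-27, was at 65.2, 60.9 and 69.2 CPM in OGT-sufficient and 82.0, 72.6 and 62.6 CPM in OGT-deficient samples. The groups overlapped, because OGT-deficient replicate 3 lay below 2 of the OGT-sufficient samples. Its log2 fold change was 0.15 ± 0.13 (SE) with an FDR of 0.845 in edgeR, and its 95% interval from -0.15 to 0.46 leaves room for levels between 0.90 and 1.37 times those of the OGT-sufficient cells. It was 0.06 without OGT-deficient replicate 1 and 0.28 without OGT-deficient replicate 3.

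Among the 10949 genes tested, the profiles most like that of *Il6st* over the 6 samples were those of *St8sia6*, *Ndufb11* and *4930453N24Rik*, with Pearson r of 0.993, 0.989 and 0.988 on log2 (CPM + 0.5). An r over 0.95 was found for 58 of 10948 genes. Of the other receptor chains, *Il6ra* came nearest with an r of 0.869, followed by *Il27ra* with 0.569. *Ifngr2* had an r of 0.0552 and *Il12rb1* of -0.46. These values describe 6 libraries of 2 genotypes, with depth and sort in common.

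**Figure D2:**
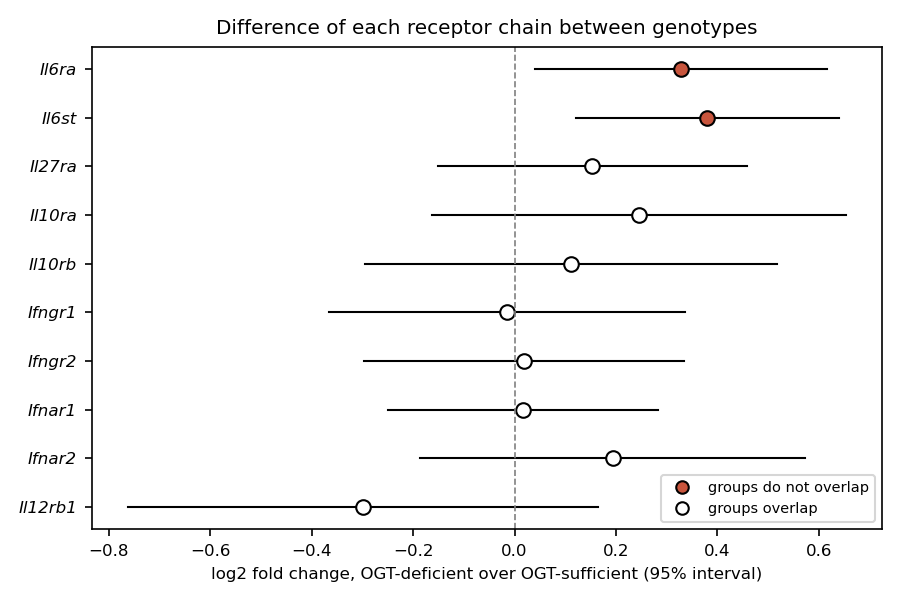
Log2 fold change of each receptor chain between OGT-deficient and OGT-sufficient cells (x axis), as a point with its 95% interval. The intervals of *Il6ra* (0.04 to 0.62) and *Il6st* (0.12 to 0.64), filled because their groups do not overlap, exclude 0, and those of the other 8 chains include it.

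The groups overlapped for both chains of the IL-10 receptor. *Il10ra*, which binds IL-10, was at 117, 90.5 and 82.7 CPM in OGT-sufficient and 92.6, 115 and 137 CPM in OGT-deficient samples. The highest sample was OGT-deficient, but both other OGT-deficient samples lay below OGT-sufficient replicate 1. The coefficient of variation was 18.8% and 19.4% in the 2 groups, against 7.06% and 7.71% for *Il6st*. A log2 fold change of 0.25 ± 0.18 (SE) had an unadjusted p of 0.205 and an FDR of 0.794 in edgeR. Without OGT-sufficient replicate 1 it was 0.45 with an unadjusted p of 0.0414, and without OGT-deficient replicate 3 it was 0.13. *Il10rb*, the accessory chain shared with other receptors of the IL-10 family, was at 83.4, 77.3 and 55.8 CPM against 64.5, 87.8 and 81.5 CPM. OGT-sufficient replicate 3 and OGT-deficient replicate 1 were its lowest samples. Its log2 fold change was 0.11 ± 0.18 (SE) with an FDR of 0.913, and it changed sign to -0.04 without OGT-sufficient replicate 3.

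The ligand-binding chain of the IFN-γ receptor, *Ifngr1*, was at 215, 226 and 159 CPM in OGT-sufficient and 188, 183 and 223 CPM in OGT-deficient samples. The lowest and the highest sample both belonged to the OGT-sufficient group. Between the groups the log2 fold change was -0.02 ± 0.15 (SE) with an FDR of 0.984 in edgeR. Its sign turned in 5 of the 15 alternatives. The signal-transducing chain *Ifngr2* was at 54.5, 45.3 and 46.1 CPM against 45.4, 46.8 and 55.6 CPM, a log2 fold change of 0.02 ± 0.14 (SE). The 95% intervals allowed levels from 0.78 to 1.26 times the control for *Ifngr1* and from 0.81 to 1.26 times for *Ifngr2*, so a change of 1.5-fold in either direction lay outside both.

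Of the type I interferon receptor, *Ifnar1* was the steadier gene. It was at 161, 169 and 138 CPM in OGT-sufficient and 167, 155 and 151 CPM in OGT-deficient samples, and the OGT-deficient values lay inside the range of the controls. Its log2 fold change of 0.02 ± 0.12 (SE) had an FDR of 0.979 in edgeR and a 95% interval of 0.84 to 1.22 times the control level. *Ifnar2*, its partner chain, was at 121, 118 and 82.9 CPM against 105.5, 128.5 and 134 CPM. Here OGT-sufficient replicate 3 was far below the other 5 samples. For *Ifnar2* the log2 fold change was 0.19 ± 0.17 (SE) with an FDR of 0.844, and without OGT-sufficient replicate 3 it was 0.05. *Ifnar2*, *Il10rb*, *Ifnar1* and *Ifngr2*, the neighbours on chromosome 16, thus had log2 fold changes of 0.19, 0.11, 0.02 and 0.02 in chromosomal order, with no call among them.

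*Il12rb1* was the scarcest of the 10, with 54, 67 and 50 counts in OGT-sufficient and 50, 53 and 41 counts in OGT-deficient samples. It was at 14.4, 18.1 and 13.2 CPM against 12.9, 13.4 and 10.7 CPM. Only the lowest OGT-sufficient value and the highest OGT-deficient value crossed. Its log2 fold change of -0.30 ± 0.20 (SE) was the most negative of the 10 chains, had an FDR of 0.785 in edgeR, and stayed between -0.38 and -0.12 over the alternatives. With counts this low its 95% interval was wide, from 0.59 to 1.12 times the control level.

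Per kilobase of exon of protein-coding transcripts, *Ifngr1* had the highest level of the 10, with a mean of 94.2 CPM per kb over the 6 samples (range 75.2 to 107). *Il10rb* (40.6), *Ifnar1* (40.1), *Ifnar2* (36.2), *Il10ra* (30.3), *Il6st* (28.3), *Il27ra* (25.8) and *Il6ra* (24.6 CPM per kb) followed, and the ranges of neighbours in this order overlapped. *Ifngr2* (13.2 CPM per kb) lay below *Il6ra* and *Il12rb1* (4.80 CPM per kb) below *Ifngr2*, in each of the 6 samples and without overlap of the ranges. On this scale the ligand-binding chain of the IFN-γ receptor stood far above its partner, while *Ifnar1* and *Ifnar2* were near each other. The order in the middle depended on the gene model, since with the exons of all annotated transcripts *Il10rb* moved from rank 2 to rank 7. *Ifngr1* stayed first, and *Ifngr2* and *Il12rb1* stayed the ninth and the tenth.

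Ratios of the chains of 1 receptor were compared within each library, where no scaling between libraries is needed. The log2 ratio of *Il6ra* to *Il6st* was -0.52 ± 0.13 (SD, n = 3) in OGT-sufficient and -0.57 ± 0.13 in OGT-deficient cells (exact two-sided permutation test, p = 0.8). The ratio of *Il27ra* to *Il6st* was -2.12, -2.19 and -1.84 in OGT-sufficient against -2.22, -2.20 and -2.43 in OGT-deficient replicates. Each OGT-deficient sample was lower, by a narrow margin between replicate 2 of each group, and the exact permutation p was 0.1, the smallest that 3 against 3 samples allow (0.6 after Benjamini-Hochberg adjustment over 6 pairs). The mean difference of -0.23 became -0.13 without OGT-sufficient replicate 3 and -0.16 without OGT-deficient replicate 3. The ratio of *Il10ra* to *Il10rb* was 0.43 ± 0.18 and 0.55 ± 0.18, that of *Ifngr1* to *Ifngr2* was 2.03 ± 0.27 and 2.00 ± 0.04, and that of *Ifnar1* to *Ifnar2* was 0.55 ± 0.17 and 0.37 ± 0.26 (mean ± SD, n = 3, exact permutation p of 0.5, 0.9 and 0.4). For *Il12rb1* over *Il12rb2*, the chain particular to the IL-12 receptor, the means were 0.98 ± 0.44 and 0.75 ± 0.53 (exact permutation p = 0.7). *Il23r*, the other partner of *Il12rb1*, had at most 3 counts in any sample, so no ratio was formed.

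**Figure D3:**
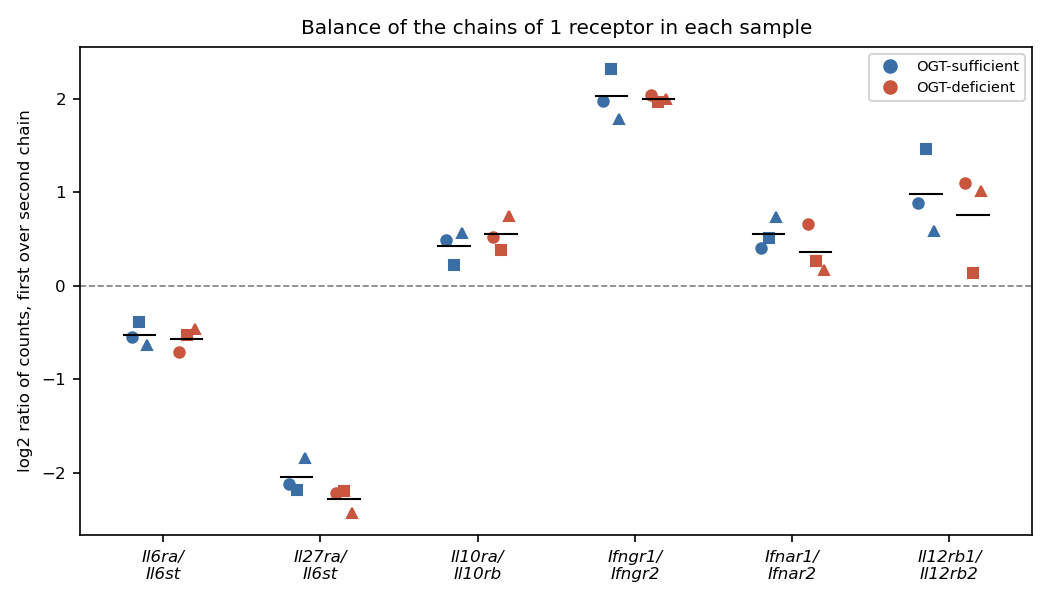
Log2 ratio of the counts of the first over the second chain of each receptor (y axis) in OGT-sufficient (blue) and OGT-deficient (red) samples, with 1 point per sample, a shape per replicate number as in the plot of levels, and the mean as a line. The 2 groups overlap in each pair but *Il27ra*/*Il6st*, where the OGT-deficient samples lie below the others with a mean difference of -0.23.

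Most of the ligand genes had few or no counts in the sorted cells. Of 24 ligand genes listed, 20 had a count in some sample and 5 could be tested, none of them at an unadjusted p under 0.05. *Il6* had at most 2 counts per sample, and *Ifnb1* had 0 in all 6 samples, which allows up to 3 counts in each. *Il10*, the cytokine of suppressive Treg cells, was at 3, 3 and 4 counts in OGT-sufficient and 3, 0 and 1 in OGT-deficient samples, too few for a comparison. *Il27*, which encodes p28, had at most 6 counts and *Il12a* at most 10. *Ebi3*, the subunit shared by IL-27 and IL-35, was at 31, 19 and 13 against 14, 9 and 15 counts, with a log2 fold change of -0.77 and an FDR of 0.750 in edgeR. *Ifng* was at 15, 12 and 6 against 12, 11 and 9 counts, with a log2 fold change of -0.09 and an FDR of 0.969.

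Of 15 other receptor chains of these families, 5 were tested and none had an unadjusted p under 0.05. *Il12rb2* was at 29, 24 and 33 against 23, 48 and 20 counts (log2 fold change 0.03), and OGT-deficient replicate 2 was its highest sample. Receptors of other cytokines gave other counts in the same fit. Of 9 receptors of the common gamma chain family, *Il2rb* was at an unadjusted p under 0.01 in the higher and *Il9r* in the lower direction (median of the list -0.01). Over all 10949 genes tested, 97 were higher and 105 lower at that level. Of 6 tested receptors of the IL-1 family, 3 were lower at an unadjusted p under 0.05 in edgeR, beside 4.01% of all genes tested. Among them, *Il18rap*, a chain of the IL-18 receptor, fell from 57, 57 and 55 counts to 18, 15 and 19 counts, with a log2 fold change of -1.74 and an FDR of 0.0837 in edgeR. *Il18r1*, its partner, was at 271, 191 and 227 against 139, 120 and 143 counts, with a log2 fold change of -0.82 and an FDR of 0.216. Whether the gp130, IL-10 and interferon receptor chains differed from these lists was not tested.

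Behind the receptors, 12 of 12 genes of JAK-STAT signalling were tested and none passed an FDR of 0.1. *Tyk2*, the kinase carried by IFNAR1, IL-10Rβ and IL-12Rβ1, was at 252, 233 and 242 counts in OGT-sufficient and 153, 190 and 168 counts in OGT-deficient samples. The groups did not overlap, the log2 fold change was -0.56 ± 0.12 (SE), and the FDR in edgeR was 0.306. Over the alternatives it lay between -0.61 and -0.49. *Irf9*, the DNA-binding subunit of the STAT2 complex that forms below the type I receptor, was at 390, 398 and 363 against 530, 559 and 438 counts. Its groups did not overlap either, with a log2 fold change of 0.36 ± 0.12 (SE) and an FDR of 0.565. These 2 of the 12 genes were the only ones without overlap, beside 13.2% of all genes tested. They were also the only ones at an unadjusted p under 0.05 in edgeR, beside 7.1% of all genes tested. Other kinases and STATs were near 0 on the log2 scale, with 0.09 for *Jak1*, -0.12 for *Jak2*, 0.09 for *Stat2* and -0.05 for *Stat3*. *Stat4*, the STAT of IL-12, had an unadjusted p of 0.989 in edgeR.

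Of 7 feedback inhibitors, 2 had an unadjusted p under 0.05, both in the higher direction that 3.09% of all genes tested met, and none passed an FDR of 0.1. *Socs2* was at 67, 57 and 42 against 111, 115 and 109 counts, without overlap, with a log2 fold change of 0.96 and an FDR of 0.224 in edgeR. *Cish*, at a log2 fold change of 0.52 and an FDR of 0.627, was the other, and both genes are known as targets of STAT5. The lowest *Cish* level, 44.75 CPM, was in OGT-sufficient replicate 3. In the paper, many targets of STAT5 were reported as lower without OGT, and *Socs1* and *Socs3* were read as such targets. The paper's set of STAT5 targets was not examined here. *Socs1*, an inhibitor of interferon receptor signalling, was at 52, 72 and 31 against 86, 83 and 51 counts (log2 fold change 0.45, FDR 0.790). *Socs3*, which binds gp130 and is induced by STAT3, was at 92, 71 and 68 against 93, 121 and 100 counts. Each OGT-deficient value of *Socs3* exceeded the highest OGT-sufficient count, but the groups overlapped in CPM (log2 fold change 0.39, FDR 0.708).

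**Figure D4:**
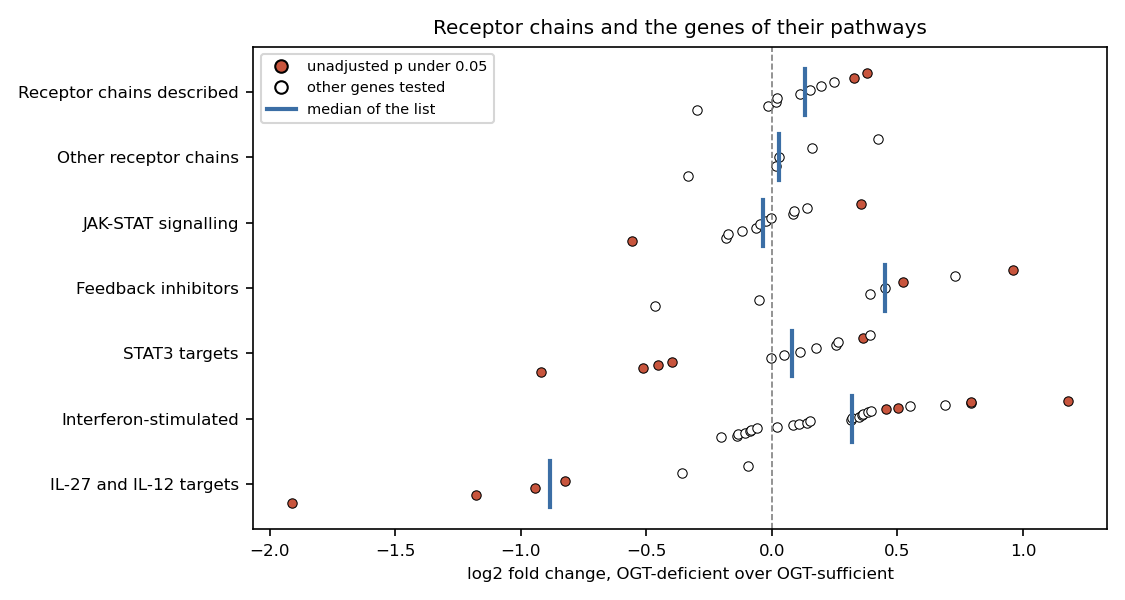
Log2 fold change of each tested gene (x axis) for the 10 receptor chains and 6 lists of genes around them, filled where the unadjusted p in edgeR was under 0.05, with the median of the list as a blue line. The medians run from -0.88 for IL-27 and IL-12 targets to 0.45 for feedback inhibitors, with 0.13 for the receptor chains, and none of the genes drawn passed an FDR of 0.1.

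The 3 lists of receptor targets did not share a direction. Of 12 STAT3 targets, 1 was higher (*Pim1*) and 4 were lower (*Junb*, *Batf*, *Ahr*, *Fgl2*) in OGT-deficient cells at an unadjusted p under 0.05, with a median log2 fold change of 0.08. Over all genes tested, 3.09% were higher and 4.01% lower at that level. *Junb*, an AP-1 subunit, was at 502, 502 and 508 against 390, 377 and 419 counts, a log2 fold change of -0.40 with an FDR of 0.431 in edgeR. Of 26 interferon-stimulated genes, 4 were higher and 0 lower at that level (*Ifit1*, *Ifit3*, *Igtp*, *Iigp1*). Of the 26, 19 had a log2 fold change above 0, beside 5175 of all 10949 genes tested, and the median was 0.32. Groups did not overlap for 1 of the 26 (*Igtp*), beside 13.2% of all genes tested. For *Ifit1* and *Ifit3*, OGT-deficient replicate 3 lay within the range of the OGT-sufficient samples in CPM. Of 6 tested targets of IL-27 and IL-12, all 6 had a log2 fold change below 0, beside 5774 of all 10949 genes tested. Their median was -0.88. At an unadjusted p under 0.05 in edgeR, 4 were lower (*Gzmb*, *Il18r1*, *Tbx21*, *Cxcr3*), beside 4.01% of all genes tested. *Il18r1* is also in the list of IL-1 family receptors. *Gzmb*, a cytotoxic granule protease, was at 17, 32 and 21 against 11, 3 and 5 counts, with an FDR of 0.385. No gene of these 3 lists passed an FDR of 0.1.

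The summed level of the 14 macrophage markers was 4709, 4093 and 2262 CPM in OGT-sufficient and 1725, 5807 and 6747 CPM in OGT-deficient samples, a 3.91-fold range in which the groups overlapped. Of the 14 markers, 12 had a log2 fold change above 0, and the median was 0.39. *Lyz2*, the lysozyme of macrophages and neutrophils, was at 495, 406 and 339 against 678, 804 and 515 counts. Its log2 fold change was 0.63, with an FDR of 0.517 in edgeR. It was the only marker of the 14 whose groups did not overlap, beside 13.2% of all genes tested. In OGT-deficient replicate 1, where the macrophage sum was lowest, *Lyz2* was at 175 CPM, above all OGT-sufficient samples. Across the 6 samples, *Ifnar2* followed this sum with a Pearson r of 0.876 (exact permutation p = 0.0139) and a Spearman rho of 0.943 (p = 0.0167). *Il10ra* gave an r of 0.884 (exact permutation p = 0.0208) and a rho of 0.771 (p = 0.103). *Il10rb* gave an r of 0.863 (exact permutation p = 0.0361) and a rho of 0.771 (p = 0.103). After Benjamini-Hochberg adjustment over the 10 chains, the exact permutation p of r was 0.104, 0.104 and 0.12, and that of rho was 0.167, 0.258 and 0.258. Leaving out the 2 samples farthest from the median sum, OGT-deficient replicates 1 and 3, r was 0.961, 0.870 and 0.977 over the other 4 samples. For the remaining chains r lay between -0.58 for *Il27ra* and 0.662 for *Ifngr2*. *Il6st* had an r of 0.0804, and its highest level was in the sample with the lowest macrophage sum. Without the same 2 samples its r was 0.947, and that of *Il6ra* moved from 0.498 to 0.915. The 4 samples left were all OGT-sufficient samples and OGT-deficient replicate 2. Of these, OGT-deficient replicate 2 had the highest macrophage sum and the highest *Il6st* and *Il6ra*. Genotype and macrophage sum thus cannot be told apart in these 4 samples. With the mean log2 level of the macrophage list as a covariate, *Il6st* had a log2 fold change of 0.39 (FDR 0.375 in edgeR) and *Il6ra* of 0.31 (FDR 0.530). Those of *Il10ra* and *Ifnar2* were 0.18 and 0.14. What part macrophage RNA had in the level of any receptor chain was not tested.

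**Figure D5:**
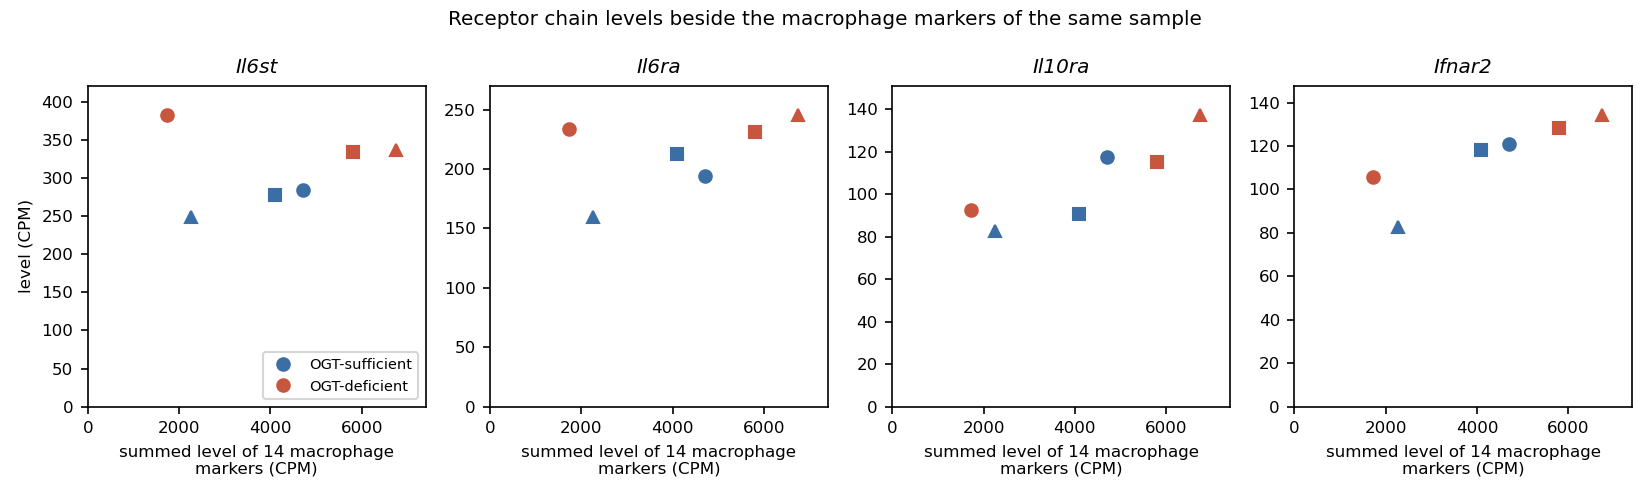
Level of *Il6st*, *Il6ra*, *Il10ra* and *Ifnar2* in CPM (y axis) against the summed level of 14 macrophage markers in CPM (x axis) in the same sample, with OGT-sufficient samples in blue, OGT-deficient samples in red and a shape per replicate number. *Il10ra* and *Ifnar2* are high where the macrophage sum is high (r of 0.884 and 0.876), while *Il6st* is highest in the sample with the lowest sum.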

How the data were processed

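RNA of YFP+ Treg cells was sequenced as paired-end reads on an Illumina sequencer. The authors trimmed reads with Trimmomatic 0.33 and aligned them with Bowtie2 2.2.4.0 to mm10 (build from the submitters' processing notes). The paper names Cuffquant for quantification and the submitters' notes name featureCounts, and the annotation, the strand setting and the treatment of reads shared between genes are not given in the sources used here. The deposited values are whole numbers per gene symbol, and because they are whole they were taken here as counts without normalization. The deposited columns of the authors' own test (p-value, FDR, fold change, differences, means) were not used. Groups are the 2 *Ogt* genotypes of the labels. Since the labels do not describe how each sample was taken, p-values measure the spread between these samples.

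The analysis used edgeR 4.0.16 in R 4.3.3 (TMM scaling, filterByExpr with a minimum count of 10, quasi-likelihood test, Benjamini-Hochberg over 10949 genes, FDR threshold 0.1), DESeq2 1.42.0, and Python 3.11.15 with scipy 1.17.1. The test was checked on simulated counts with larger changes than those of the receptor chains, so the check does not cover changes of their size. The SE was obtained by dividing the log2 fold change by the root of F, and CPM uses TMM-scaled library sizes (3712093 to 3952583, so that a floor of 3 counts is 0.759 to 0.808 CPM, for counting error only). Chain ratios used a prior count of 0.5. Replicates of a group differed by more than sampling noise, with a chi-square of 3.23 to 11.9 per degree of freedom. Gene lengths and neighbours came from GENCODE M21. Annotated genes overlap *Il10ra* (*Mir7086*, *Gm20612*), *Il27ra* (*Palm3*), *Il6ra* (*Gm42809*), *Il12rb2* (*Serbp1*) and both *Ifnar2* and *Il10rb* (*Gm21970*), and without a known strand setting their reads cannot be told apart. The same holds for others of the named genes, among them *Irf9* (*Rnf31*, on the same strand), *Tyk2* (*1700084C06Rik*), *Junb* (*Prdx2*), *Stat3* (*Stat5a*) and *Jak1* (*Raver2*).

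The receptor chains (by symbol), gene lists, markers and alternatives were chosen with earlier results of these data known. Named are all 10 chains, *Ogt*, fixed partners and ligands, genes of each pathway list and of the macrophage list with an unadjusted p under 0.01, the 3 genes most like the chain with the lowest p, while *Cish*, *Pim1*, *Batf*, *Ahr*, *Fgl2*, *Ifit1*, *Ifit3*, *Igtp*, *Iigp1*, *Tbx21* and *Cxcr3* were named after their values were seen. Genes of the other marker lists were read as summed levels only, which ran from 88.9 to 332 CPM for B cells, 7.86 to 110.0 for neutrophils, 16.25 to 32.9 for CD8 T and NK cells, 176.5 to 730 for erythroid and 45.5 to 66.0 for dendritic cells. The alternatives were other tools, scalings and filters, a replicate block, the macrophage covariate and leaving out each sample. Some list members are not reported here as single genes.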

Additional observations from a re-analysis of the deposited data

How the results depend on the processing

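No receptor chain passed an FDR of 0.1 in any of 15 alternatives, with 2 chains at an unadjusted p under 0.05 in edgeR's quasi-likelihood test and in 10 of them. With library size only, 0 chains were at an unadjusted p under 0.05, and leaving out each sample in turn gave 1 to 3 (*Il6st* alone without OGT-sufficient replicate 3 or OGT-deficient replicate 1 or 3, and *Il10ra* in addition without OGT-sufficient replicate 1). Over all genes, 3 passed the FDR by default, 38 with DESeq2, 80 with edgeR's exact test, 131 without the low-count filter, 31 with the macrophage covariate and 0 to 9 when a sample was left out (0 without OGT-deficient replicate 2 or 3, 9 without OGT-sufficient replicate 3). At an unadjusted p under 0.05 there were 777 genes, 452 with DESeq2 and 1208 without the filter. The replicate numbers do not pair the samples (correlations of deviations -0.28, 0.00726 and -0.12), and with the replicate block 0 genes passed the FDR and 679 had an unadjusted p under 0.05 in edgeR, the 2 chains among them. *Ogt* passed the FDR with DESeq2 (-1.19), the exact test (-1.21), no filter (-1.15) and the macrophage covariate (-1.14).

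Signs turned for 4 chains and 3 ratios. *Ifngr1* was at 0.0272 without the filter and at -0.15 to 0.12 when a sample was left out, *Ifngr2* at -0.02802 with library size only, -0.0080 with the covariate and -0.04255 to 0.15 when a sample was left out, *Ifnar1* at -0.0187 with library size only and -0.05385 to 0.11 when a sample was left out, and *Il10rb* at -0.0361 to 0.26 when a sample was left out. Chain ratios with a sample left out differed between the groups by -0.10 to 0.0301 for *Il6ra*/*Il6st*, -0.14 to 0.12 for *Ifngr1*/*Ifngr2* and -0.42 to 0.0806 for *Il12rb1*/*Il12rb2*, and without a change of sign by -0.30 to -0.13 for *Il27ra*/*Il6st*, 0.0237 to 0.21 for *Il10ra*/*Il10rb* and -0.33 to -0.0856 for *Ifnar1*/*Ifnar2*. The cause was not tested. Scaling by library size only moved the median of all genes to -0.06. Depth limits *Il12rb1*, the ligands and the other chains most, since they have few counts.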
